A study of Mus musculus with 8 samples.

Results

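The sites described here were peaks of the cohesin subunit Smc3 that were called in wild-type mouse embryonic stem cells, lay on numbered autosomes, and overlapped by even 1 bp neither a Smc3 peak of the tagged C59 line nor a CTCF peak of the wild type. The rule found 1934 sites among 46349 autosomal Smc3 peaks of the wild type (4.17%), and the 4 peak lists of the study held 254001 peaks in all. Of the 46349 peaks, 46.7% overlapped no C59 Smc3 peak and 4.87% overlapped no wild-type CTCF peak. The sites were chosen by the peak calls themselves (WT Smc3, C59 Smc3 and WT CTCF), so their number, their strength and the absence of these overlaps are given as a description.

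Both lines were JM8.N4 cells, a mouse embryonic stem cell line, cultured feeder-free with serum and LIF, which keeps such cells pluripotent. C59 is a single clone, homozygous for a FLAG-Halo-CTCF and a Rad21-SNAPf-V5 knock-in at the endogenous genes. The wild type (WT) carries neither tag. Chromatin immunoprecipitation and sequencing (ChIP-seq) was done with antibodies against CTCF and Smc3, with 1 library per line and protein, so no value has a replicate and no difference was tested. All intervals are exact Clopper-Pearson intervals at 95%, which cover counting error only. The C59 Smc3 list was shorter than that of the WT, with 25400 against 46349 autosomal peaks, and the CTCF lists held 80258 autosomal peaks in C59 and 96324 in the WT. A site without a C59 peak was not called there, which does not show that Smc3 was absent, and the read depth of the libraries is unknown.

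Cohesin is a ring complex of Smc1a, Smc3, Rad21 and a Stag subunit that holds sister chromatids together and extrudes loops of chromatin. In mammalian cells most cohesin peaks coincide with CTCF, a zinc finger protein that stops the extruding ring when met from the side of its N terminus. Cohesin is loaded with the help of Nipbl, and weaker cohesin signal without CTCF has been described at active promoters, enhancers and the ends of highly transcribed genes. The sites were compared with 324 Smc3 sites without WT CTCF that were called in both lines, and with 19708 Smc3 sites of the WT alone that did overlap a WT CTCF peak.

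Some of the sites lay at promoters, and the sequences below show such promoters without and with the core string of the CTCF motif, whose frequency is given further on. They are the 250 bases before the start site (RefSeq, GRCm38.p6, which has the chromosomes of mm10; 5′ to 3′ along the gene) of the 4 genes with the strongest sites whose summit lay in that promoter window, and of 2 genes with a WT-only Smc3 peak that did overlap CTCF. Capitals mark a match to the CTCF core string, the most constant letters of the CTCF motif with free positions between them, searched on both strands. Rph3a encodes rabphilin, a protein of synaptic vesicles (chr5:121009539-121009788, minus strand). Casz1 encodes a zinc finger transcription factor (chr4:148804142-148804391, plus strand). Cd2bp2 encodes a spliceosomal protein (chr7:127196078-127196327, minus strand). Zranb1 encodes a deubiquitinase (chr7:132930926-132931175, plus strand). Cpne4 encodes a copine, a calcium-dependent membrane-binding protein (chr9:104569405-104569654, plus strand). Scap encodes the sterol-sensing escort of SREBP (chr9:110333038-110333287, plus strand). Cpne4 and Scap are the strongest such promoters that hold the string, and were chosen for holding it.
Rph3a: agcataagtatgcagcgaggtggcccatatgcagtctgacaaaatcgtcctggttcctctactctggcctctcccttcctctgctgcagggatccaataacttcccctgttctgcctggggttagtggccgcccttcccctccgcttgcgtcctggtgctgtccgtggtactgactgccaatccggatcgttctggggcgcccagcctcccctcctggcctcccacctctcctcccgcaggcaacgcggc
Casz1: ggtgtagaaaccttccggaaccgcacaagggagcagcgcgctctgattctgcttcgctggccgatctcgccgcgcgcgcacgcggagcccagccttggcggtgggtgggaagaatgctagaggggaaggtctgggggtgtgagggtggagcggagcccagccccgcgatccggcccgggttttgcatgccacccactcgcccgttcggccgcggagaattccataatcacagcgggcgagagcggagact
Cd2bp2: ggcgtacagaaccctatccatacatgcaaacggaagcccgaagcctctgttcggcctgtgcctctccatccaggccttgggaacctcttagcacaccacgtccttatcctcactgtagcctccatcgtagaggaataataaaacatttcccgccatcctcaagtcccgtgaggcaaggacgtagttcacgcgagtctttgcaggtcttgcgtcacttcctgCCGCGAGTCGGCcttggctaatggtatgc
Zranb1: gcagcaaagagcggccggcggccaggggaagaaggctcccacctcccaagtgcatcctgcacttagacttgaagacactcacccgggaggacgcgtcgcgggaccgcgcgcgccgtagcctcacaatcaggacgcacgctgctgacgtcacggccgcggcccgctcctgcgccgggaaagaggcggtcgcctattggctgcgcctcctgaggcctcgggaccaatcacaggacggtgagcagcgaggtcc
Cpne4: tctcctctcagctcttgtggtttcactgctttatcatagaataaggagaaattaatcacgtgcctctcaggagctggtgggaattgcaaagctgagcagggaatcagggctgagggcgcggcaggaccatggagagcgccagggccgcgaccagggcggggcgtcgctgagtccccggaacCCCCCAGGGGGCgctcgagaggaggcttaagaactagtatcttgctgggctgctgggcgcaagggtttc
Scap: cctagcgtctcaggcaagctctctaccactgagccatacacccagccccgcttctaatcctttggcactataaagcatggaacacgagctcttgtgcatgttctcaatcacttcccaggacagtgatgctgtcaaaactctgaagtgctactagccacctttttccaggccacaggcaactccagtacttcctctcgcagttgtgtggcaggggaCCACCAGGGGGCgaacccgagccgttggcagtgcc

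At Rph3a the Smc3 summit lay 97 bp before the start site, with a fold enrichment of 4.96 over local background, and the nearest WT CTCF peak was 9169 bp away. At Casz1 the summit lay 140 bp before the start with a fold of 4.90, and CTCF was 2391 bp away. The other two had CTCF close by. The Cd2bp2 site, with a fold of 4.88, ended 82 bp from a WT CTCF peak, and its sequence is the only one of the 4 with a match to the string. The Zranb1 site, with a fold of 4.84, ended 9 bp from a WT CTCF peak and 303 bp from one of C59. By contrast, the Cpne4 peak (Smc3 fold 8.53) overlapped CTCF peaks with a fold of 29.9 in C59 and 27.0 in the WT, and the Scap peak (Smc3 fold 8.33) overlapped CTCF peaks with a fold of 29.1 in C59 and 49.8 in the WT.

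The sites were weak peaks. Fold enrichment, the authors' ratio of read pileup to local background at the summit, ran from 1.87 to 7.23 with a median of 3.29 (quartiles 2.95 and 3.68). The median was 3.82 for the sites of both lines without CTCF, 4.32 for the WT-only sites with CTCF, and 5.81 for all autosomal WT Smc3 peaks. The median pileup at the summit was 20 reads, with 13 the lowest and 99 the highest, on a median background of 5.19. The median length was 307 bp, close to the shortest peak of 250 bp. By deciles of fold over the WT list, 1086 sites stood in the weakest decile, 543 in the next and 216 in the third. The strongest 3 deciles held 0 sites. Of the sites, 17 (0.879%) had a p-value above the largest one in the C59 Smc3 list, against 0.157% of the WT-only sites with CTCF and 0.106% of all WT Smc3 peaks.

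**Figure D1:**
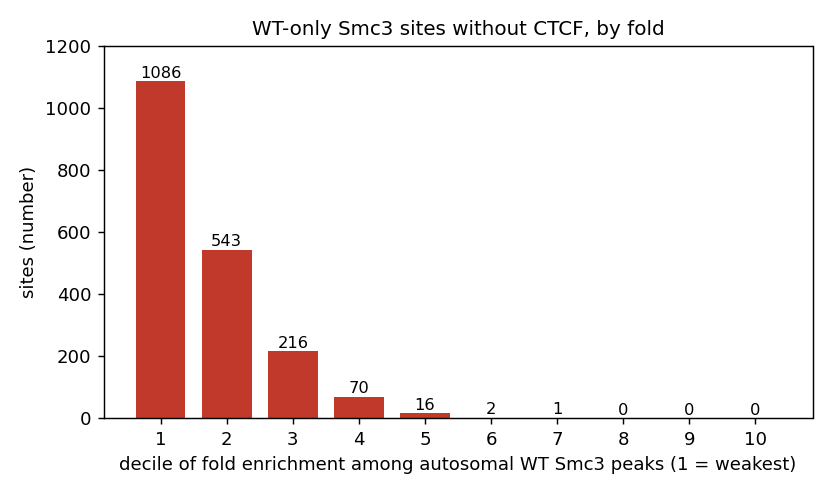
Number of WT-only Smc3 sites without CTCF (vertical axis) in each decile of fold enrichment over all 46349 autosomal WT Smc3 peaks (horizontal axis, 1 is the weakest). The counts are 1086, 543 and 216 in the weakest 3 deciles and 0 in the strongest 3.

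The strongest site lay by Dppa5a, an RNA-binding protein gene of pluripotent cells. Its summit was 868 bp outside the gene, with a pileup of 43 reads, a background of 5.09 and a fold of 7.23, and another WT Smc3 peak was 123 bp away. Next came Txnip, the gene of the thioredoxin-interacting protein, with a fold of 6.37 at a summit 248 bp from the start site and inside the gene. That peak was 1490 bp long and overlapped a C59 CTCF peak of low fold, 2.89. Myo18b, an unconventional myosin gene, had a site with a fold of 5.92 inside the gene and 29940 bp from its nearer end. Cacng2, which encodes the AMPA receptor subunit stargazin, had a site with a fold of 5.72 inside the gene and 225 bp from an annotated start, and the nearest WT CTCF peak was 19880 bp away. The site nearest to Mycn, the N-Myc gene, had a fold of 5.60 but lay 147407 bp away. The site nearest to Immp2l, a mitochondrial peptidase gene, lay over 1 Mb from it (1017361 bp), with a fold of 5.62.

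The rest of the strongest 12 had folds between 5.23 and 5.58. Selenoh, a selenoprotein gene, had a site 204 bp from its start and inside the gene, with a fold of 5.34. The Arid3a site (a DNA-binding protein; fold 5.26) lay 298 bp outside the gene, 302 bp from a WT CTCF peak and 802 bp from a C59 Smc3 peak. The Ccdc186 site (a coiled-coil protein; fold 5.43) lay 11303 bp from the gene, 324 bp from a WT CTCF peak and 556 bp from a C59 Smc3 peak. Sites nearest to Litaf, an endosomal protein gene, and Parva, a parvin gene of cell adhesion, stood 20047 and 22292 bp outside them. The site in Xkr6, of the XK family, stood 75266 bp from its nearer end. The strongest sites thus fell at starts, inside genes and far from genes alike.

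The C59 CTCF list had no part in the rule, but it is tied to the WT CTCF list that the rule used. Of all autosomal WT CTCF peaks, 79.9% overlapped a C59 CTCF peak. The shares below thus largely follow from the rule and are given as a description. A C59 CTCF peak overlapped 52 of the 1934 sites, or 2.69% (2.01 to 3.51). The share was 1.85% at the sites of both lines without WT CTCF and 94.2% at the WT-only sites with WT CTCF, and 92.7% of all autosomal WT Smc3 peaks had one. At equal strength the difference was nearly as large: with the deciles of fold weighted to those of the sites, 89.5% of the WT-only sites with WT CTCF had a C59 CTCF peak. At 1882 of the sites neither line had a CTCF peak.

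**Figure D2:**
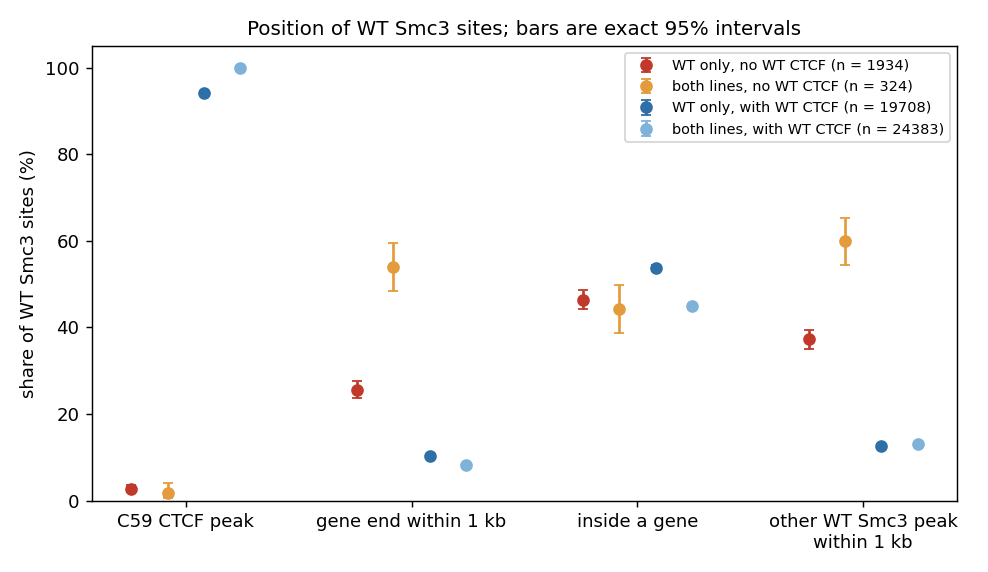
Share of WT Smc3 sites in % (vertical axis, with exact 95% intervals) that overlap a C59 CTCF peak, lie within 1 kb of a protein-coding gene end, lie inside a gene, or have another WT Smc3 peak within 1 kb, for 4 sets of sites. The WT-only sites without CTCF stand at 2.69% for C59 CTCF, next to the sites of both lines without CTCF at 1.85%, and between the other sets for gene ends at 25.6%.

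The 52 sites with a C59 CTCF peak were of 2 kinds. At 36 the C59 peak overlapped no WT CTCF peak, and its fold was low, from 2.89 to 5.02 with a median of 4.01, against a median of 11.2 over all autosomal C59 CTCF peaks. At the other 16 the C59 peak also overlapped a WT CTCF peak, which lay beside the Smc3 site, and its fold ran from 3.62 to 55.0 with a median of 22.0. At 10 of these 16 it was above the median of all C59 CTCF peaks. The highest was at a site whose nearest gene end was that of Nectin1, a cell adhesion gene. After Txnip, the strongest Smc3 sites with a C59 CTCF peak all belonged to the 36 and lay nearest to Cypt12 (Smc3 fold 4.77, C59 CTCF fold 4.43), Rspo3 (4.65 and 3.59), Bnc1 (4.65 and 4.01), Gap43 (4.26 and 4.43) and Wscd1 (4.07 and 4.30), with the same pair of folds given for each. Rspo3, an enhancer of Wnt signalling, had the site 210 bp inside an end of the gene. Gap43, a growth cone protein gene, had it inside the gene, 8758 bp from the nearer end.

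Gene ends held many of the sites. At 495 sites, or 25.6% (23.7 to 27.6), the summit was no more than 1 kb from the start or the far end of a protein-coding gene. The share was 54.0% (48.4 to 59.5) for the sites of both lines without CTCF, 10.4% (9.98 to 10.8) for the WT-only sites with CTCF and 10.2% for all autosomal WT Smc3 peaks, and such windows held 3.09% of autosomal bases. Weighted to the same deciles of fold, it was 50.0% for the sites of both lines and 12.7% for the WT-only sites with CTCF. The intervals count each peak separately, although 23.8% of the sites lay within 10 kb of another such site, and the difference was not tested. By strength it was 25.2%, 28.2%, 20.4% and 27.1% of the sites in the weakest 4 deciles of fold. With every list limited to as many of its strongest peaks as the shortest one held, the rule gave 1925 sites, of which 4 were among the 1934, and 6.39% of them stood at a gene end, against 8.58% of the WT Smc3 peaks kept. Of those 1925 sites, 1921 overlapped a peak of the whole WT CTCF list, so they are other sites and not a stronger choice of the same kind. Inside genes lay 46.4% of the sites, against 48.6% of all WT Smc3 peaks and 40.9% of bases.

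Gene starts were the more frequent of the 2 ends. Start sites with a strand came from the RefSeq promoter table, and chromosome 18 was not used here for them, which leaves 1874 sites. Of these, 310 (16.5%) had their summit within 1 kb of a protein-coding start site, against 23.2% of the sites of both lines without CTCF, 6.72% of the WT-only sites with CTCF, 5.9% of all WT Smc3 peaks and 1.52% of bases. The summits gathered at the start itself. Within 250 bp lay 146 sites, or 7.79% (6.62 to 9.10), against 4.39% (2.42 to 7.25) of the sites of both lines without CTCF, 2.77% of the WT-only sites with CTCF, 2.42% of all WT Smc3 peaks and 0.401% of bases. Upstream and downstream were alike, with 149 and 161 summits within 1 kb. The sites of both lines without CTCF peaked elsewhere, with 6.27% of them 600 to 800 bp after the start, where 1.12% of the WT-only sites without CTCF lay. A far end was within 1 kb of 160 sites, and a far end with no start site of 128 of the sites (6.83%), against 28.2% of the sites of both lines and 2.46% of the WT-only sites with CTCF. The median background at the 146 sites by a start was 5.83, against 5.19 for all the sites; its part in the result was not tested.

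**Figure D3:**
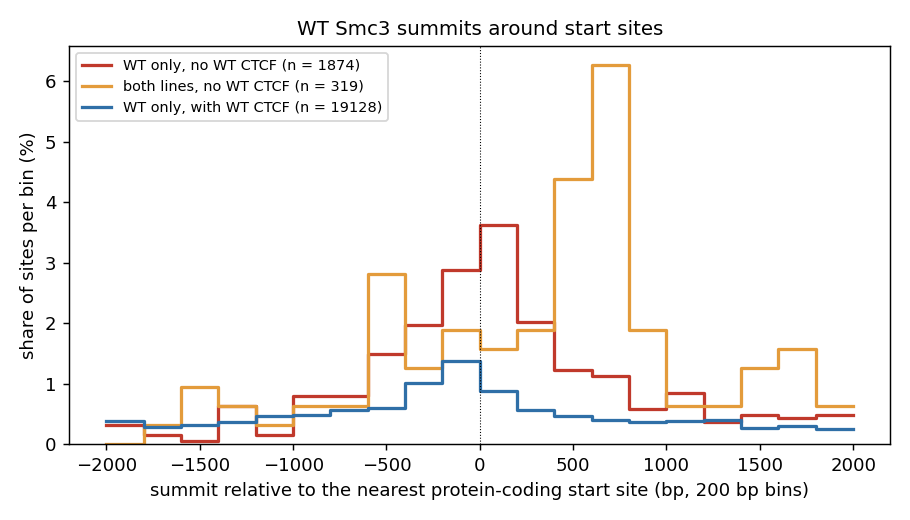
Share of sites in % per 200 bp bin (vertical axis) by distance of the summit from the nearest protein-coding start site in bp (horizontal axis, negative is upstream). The WT-only sites without CTCF are highest from 0 to 200 bp at 3.63%, whereas the sites of both lines without CTCF are highest from 600 to 800 bp at 6.27%.

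The promoters with a site held the letters of a CTCF site about as often as promoters in general, and less often than promoters with a CTCF peak. The rule left out sites with a WT CTCF peak, and the sets with CTCF were defined by one. The lower share thus largely follows from the rule and is given as a description. A summit of these sites fell in 104 promoter windows of 300 bp (250 bases before to 50 after the start), and 9 of them, or 8.65% (4.03 to 15.8), held the CTCF core string. The share was 8.73% over all 31396 promoters of the table, 39.3% (203 of 516) in promoters with a WT-only Smc3 peak that had CTCF, and 46.1% in promoters with a Smc3 peak of both lines and CTCF. A stricter string with more fixed letters, chosen after seeing the data, was in 0.962% of the promoters with a site, 7.95% of those with a WT-only peak and CTCF, and 0.933% of all promoters. The promoters with a site were rich in CpG. Their median GC content was 59.2%, against 60.7% with a WT-only peak and CTCF and 53% over all promoters, and the ratio of observed to expected CpG was 0.722, against 0.703 and 0.389. The GC box GGGCGG was in 53.8% of them, against 54.7% and 36.0%. The ETS string CCGGAAGT was in 11.5% (6.11 to 19.3), against 7.56% with a WT-only peak and CTCF and 3.95% of all promoters. Over promoters with any WT Smc3 summit it was in 6.44%. The E box CACGTG was in 11.5%, against 7.75% with a WT-only peak and CTCF and 7.14% of all promoters. The CCAAT box went the other way, in 30.8% against 31.6% and 37.3%. The other strings searched (CRE, NRF1, octamer, YY1 and B box) were each in at most 3 of the 104 promoters. Of all 31396 promoters, 11311 were of long noncoding RNA genes, against 18 of the 104, so they are not a matched background. The strings were searched on both strands, and a match is letters, not a bound site.

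**Figure D4:**
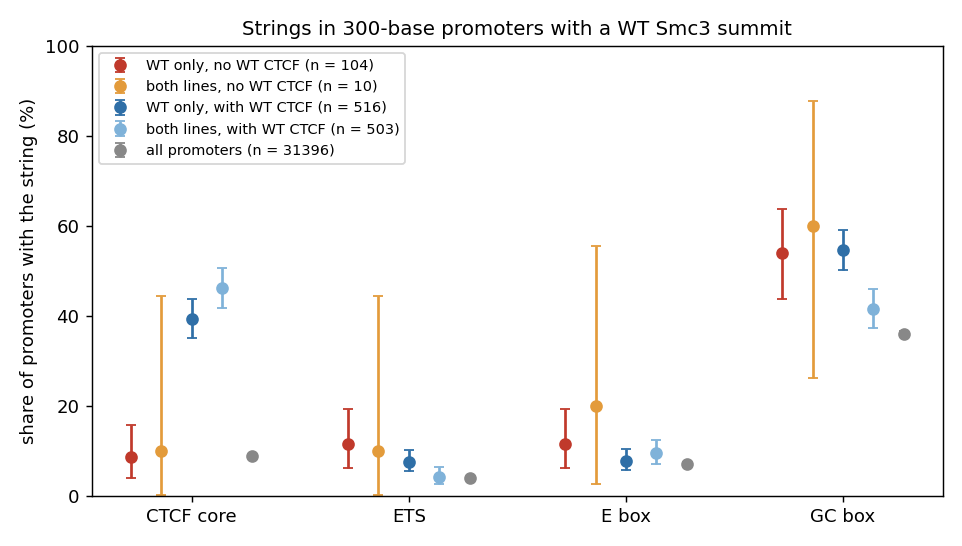
Share in % of 300-base promoters that hold each string (vertical axis, exact 95% intervals), for promoters with a WT Smc3 summit of 4 sets of sites and for all 31396 promoters. For the CTCF core, promoters with a WT-only site without CTCF stand at 8.65%, level with all promoters at 8.73%, against 39.3% with a WT-only peak and CTCF. The sets were defined by WT CTCF peaks, so this difference largely follows from the rule.

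Many sites lay beside CTCF without touching it. The gap to the nearest WT CTCF peak was at most 1 kb at 781 sites (40.4%), at most 100 bp at 94 (4.86%), and at most 10 kb at 88.1%, with a median of 1501 bp. For the sites of both lines without CTCF the shares were 30.9%, 2.78% and 93.5%, with a median of 2205 bp. Lying near CTCF was thus not particular to the WT-only sites. Measured from summits, 36.0% of the sites were within 1 kb of a WT CTCF peak, against 7.41% of the bases outside CTCF peaks. The neighbouring CTCF peaks, 753 in number, were strong, with a median fold of 15.7 against 9.50 over all WT CTCF peaks. Counted once for each of the 781 sites, the neighbour itself carried a C59 Smc3 peak at 48.4% and a WT Smc3 peak at 67.6%, against 25.2% and 44.4% of all WT CTCF peaks, and 81.8% of the neighbours had a C59 CTCF peak, close to the 79.9% of all WT CTCF peaks. These shares were not matched for CTCF fold, which was higher at the neighbours.

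A gene end and a WT CTCF peak were both within 1 kb at 208 sites, a gene end alone at 287, CTCF alone at 573 and neither at 866. The median fold was 3.28 to 3.30 in all 4 classes. Another WT Smc3 peak stood within 1 kb of 720 sites (37.2%), against 59.9% of the sites of both lines without CTCF, 12.7% of the WT-only sites with CTCF and 14.3% of all WT Smc3 peaks. A C59 Smc3 peak stood within 1 kb of 424 sites (21.9%), against 6.33% of the WT-only sites with CTCF.

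Some sites were close to the limits of the rule. A site inside Slc2a3, a glucose transporter gene, ended 1 bp from a WT CTCF peak (Smc3 fold 3.08). A site at the start of Apoe, the apolipoprotein E gene, ended 4 bp from a WT CTCF peak (fold 2.78), and one by the start of Tert, the telomerase gene, 6 bp from a WT CTCF peak with a fold of 31.0 (Smc3 fold 2.89). Sites at Inpp5f, Ppp1r10 and Rcor2 ended 1, 12 and 18 bp from a C59 Smc3 peak, with folds of 3.78, 3.60 and 3.63. Just outside the rule, WT-only peaks nearest to Pid1, Btg2 and Npr1 overlapped CTCF by 4, 4 and 5 bp, with folds of 3.49, 3.81 and 2.89. Peaks without WT CTCF nearest to H3c14, Cox7c and Msh6 overlapped a C59 Smc3 peak by 1, 2 and 8 bp, with folds of 2.74, 2.80 and 3.49. The folds of these 6 sites just inside the limits ran from 2.78 to 3.78, and those of the 6 peaks just outside from 2.74 to 3.81. There were 13 WT-only peaks that overlapped CTCF by at most 20 bp.

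Another WT Smc3 peak of any kind stood within 10 kb of 78.7% of the sites, against 91.4% of the sites of both lines without CTCF, 56.0% of the WT-only sites with CTCF and 57.6% of all WT Smc3 peaks. Of the sites, 461 (23.8%) were within 10 kb of another site of the same kind, in 189 clusters, of which 135 held 2 sites, 34 held 3, 15 held 4, 3 held 5 and 2 held 7. The clusters of 7 lay at Irf2bpl, a transcriptional regulator gene, and at Spry4, which encodes an inhibitor of receptor tyrosine kinase signalling. The clusters of 5 lay at Reep3, Mybl2 and Dusp4, an endoplasmic reticulum protein, a Myb family transcription factor and a MAP kinase phosphatase. Clusters of 4 included those nearest to Nanog and Esrrb, core pluripotency factors, to Klf3, Klf9, Hes1 and Nrf1, all transcription factors, to Mcl1, an inhibitor of apoptosis, and 2 at Meis2, a homeobox gene. The others of 4 were nearest to Mycn, Leng9, Blcap, Yars, Mettl27 and Mcts2. In the 20 clusters of 4 or more, 0 sites overlapped a C59 CTCF peak. The share over all the sites was only 2.69%, so few overlaps could fall in these clusters, and a difference was not tested.

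At Irf2bpl (chr12:86880703-86884814, minus strand) the cluster ran over 21951 bp, which held 9 WT Smc3 peaks, 7 of them without CTCF and WT only. Their folds were 3.32 at -4.38 kb from the start site (upstream), 3.61 and 3.85 at 0.289 and 0.826 kb after it, 3.06 at 4.82 kb, 2.52 at 12.7 kb, and 3.38 and 3.13 at 16.9 and 17.3 kb. The stretch had 2 Smc3 peaks in C59, with folds of 3.89 and 6.31, and both coincided with WT Smc3 peaks on CTCF, with folds of 9.04 and 5.91. At Spry4 the stretch of 18272 bp held 0 Smc3 peaks in C59 and 7 in the WT, all of the kind described here. It was not free of CTCF, with 3 CTCF peaks in the WT and 1 in C59. The sites there with folds of 3.51 and 3.58 lay 120 and 192 bp from a WT CTCF peak.

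**Figure D5:**
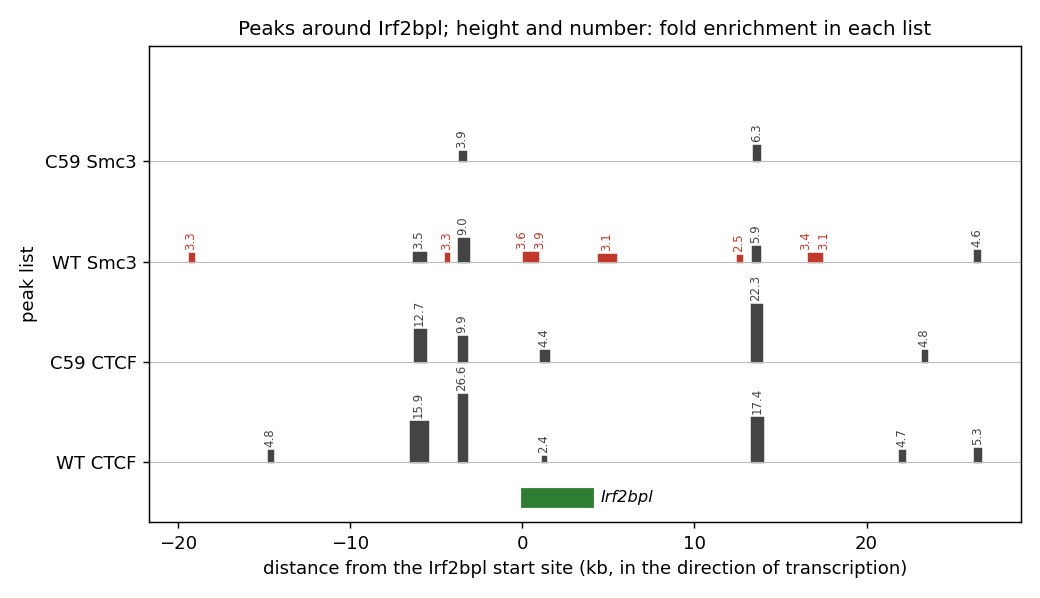
Peaks of the 4 lists around Irf2bpl by distance from its start site in kb (horizontal axis, in the direction of transcription), with bar height and number giving the fold enrichment within each list. WT-only Smc3 sites without CTCF are in red, and taller WT Smc3 peaks stand at -3.49 kb and 13.6 kb, where Smc3 and CTCF were called in both lines. The lowest backgrounds differed between lists (near 4.16 in WT Smc3 and 3.56 in C59 Smc3). How pileups were scaled is not known here, so heights compare within a row.

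Several pluripotency genes had such sites. A gene was counted when a summit lay at most 1 kb from its start or far end, which held for 547 of 20665 autosomal protein-coding genes (2.65%), with a median fold of 3.32. In the list of pluripotency genes it held for 9 of 30, or 30% (14.7 to 49.4), with a median fold of 3.21. Any WT Smc3 peak stood by 14 of the 30 genes, against 21.8% of all protein-coding genes. Dppa5a had the highest fold, 7.23. Klf2, a transcription factor that sustains naive pluripotency, had a site with a fold of 4.75, at 972 bp from its far end. Sox2, a core factor, had a site 53 bp from its far end with a fold of 3.32, and 71 bp from a C59 Smc3 peak. Nanog had a site 367 bp from its start with a fold of 3.24, and CTCF lay 467 bp from it. The others were Tdgf1 (Nodal co-receptor, fold 3.21), Tet1 (methylcytosine oxidase, 3.08), Tbx3 (transcription factor, 2.86), Socs3 (inhibitor of LIF signalling, 2.85) and Fgf4 (growth factor, 2.68).

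Over the wider window of 10 kb around the gene the same list stood at 15 of 30 genes (50%, 31.3 to 68.7), against 8.06% of protein-coding genes. Any WT Smc3 peak stood by 96.7% of the list in this window, against 71.2% of protein-coding genes. Other lists also had higher shares, with 26.5% of translation factor (12.9 to 44.4), 24.2% of lineage factor (11.1 to 42.3) and 23.75% of ribosomal protein genes (14.95 to 34.58). Histone genes stood at 8.065% and Zfp genes at 6.70%. Nanog and Esrrb had 4 sites each, of 9 and 10 WT Smc3 peaks there, and Dppa5a, Socs3 and Fgf4 had 3 each. The 4 sites by Nanog had folds of 2.88, 3.24, 3.45 and 3.19, and those by Esrrb 3.55, 2.78, 3.85 and 3.86, so none was among the strongest. Pou5f1, Klf4, Zfp42, Nodal and Prdm14 had 0 sites in this window, though Pou5f1 had 5 WT Smc3 peaks.

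Ribosomal protein genes had a site at 9 of 80 (11.2%, 5.28 to 20.3), led by Rpl9 (fold 4.86), Rps12 (4.35), Rpl35 (4.26) and Rps28 (3.61). More of them, 22, had a Smc3 site of both lines without CTCF, and any WT Smc3 peak stood by 46 of the 80. The Rpl9 and Rps12 sites ended 161 and 193 bp from a C59 Smc3 peak. Histone genes, transcribed in large clusters in S phase, had a site at 0 of 62. The exact interval, 0 to 5.78%, includes the 2.65% of all protein-coding genes. Any WT Smc3 peak stood by 51 of the 62, and 46 had a site of both lines without CTCF. Of the transfer RNA genes, 21 of 391 (5.37%, 3.36 to 8.09) had a site, and 0 had a site of both lines without CTCF. The 21 genes shared 13 sites, and the interval counts each gene separately. Any WT Smc3 peak stood by 102 of the 391 (26.1%), and a WT-only peak with CTCF by 52. The tRNA sites included n-TTcgt3 with a fold of 3.97, a site with a fold of 3.93 shared by n-TAagc10 and n-TVaac4, and a site at n-TEttc6 with a fold of 3.84. Genes of cohesin and CTCF themselves had a site at 0 of 23 (interval 0 to 14.8%, which includes the 2.65% of all protein-coding genes).

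Every autosome had such sites. The share of WT Smc3 peaks that met the rule ran from 3.14% (2.51 to 3.88) on chromosome 9 to 5.36% (4.30 to 6.60) on chromosome 16. Chromosome 8 had the highest median background at these sites, 7.21, and the lowest median fold, 3.02. Chromosome 11 had a median background of 5.94, and the others had 4.85 to 5.31.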

How the data were processed

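ChIP-seq peak lists of 4 libraries (CTCF and Smc3 in C59 and WT JM8.N4 cells) were used. Input and IgG libraries were not used here. The extraction protocol in the labels names Rad21 and CTCF antibodies, while the antibody label of the Smc3 libraries names Smc3 and was followed. The submitters' processing notes name Bowtie 0.12.8, MACS2 2.1.0.20140616, deepTools 2.4.1, FastQC 0.10.1, CASAVA and mm10; the control and threshold of peak calling are not given in the sources used here. The pileup signal, the p-value and q-value (linear) and the fold ratio of each peak are the authors' deposited values. Fold was compared within a list only, and background was computed as (pileup + 1)/fold - 1.

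Overlaps (at least 1 bp), gaps and shares were computed in Python (3.11.15) using pandas 2.3.3, scipy 1.17.1 and numpy 2.4.6, checked on simulated intervals, and plotted using matplotlib 3.10.9. Gene positions and promoters came from RefSeq GRCm38.p6, and strand was found for 16457 of 21900 protein-coding genes. The sites, lists and named genes (the strongest 12, the strongest 6 with and without C59 CTCF, up to 4 per gene list, those nearest the limits of the rule and the largest cluster) were chosen with earlier results of these data known. Promoters shown, clusters after the largest, and all 9 pluripotency genes were named after their values were seen. Alternatives covered overlap, q, list length, windows, chromosomes and the CTCF string.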

Additional observations from a re-analysis of the deposited data

How the results depend on the processing

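Recomputed, 21 values stayed within counting error or within 1.5 times of the reported count, and 10 did not. The 21 include the number of sites with lists of equal length, 1925, although 4 of these were among the 1934. Without sites within 1 kb of CTCF or of a C59 Smc3 peak, 1094 sites remained, of which 23.3% stood at a gene end. The median fold was 3.43 at a q-value of at most 0.001 and 3.32 without chromosomes 1, 8 and 11. With lists of equal length, 3.74% of sites had a C59 CTCF peak, against 77.5% of the WT Smc3 peaks kept, and 6.39% stood at a gene end; this setting cuts the CTCF lists as well as the WT Smc3 list, and 1921 of its 1925 sites overlap a peak of the whole WT CTCF list. With the Smc3 lists alone cut to equal length, an alternative added after seeing the data, 4 sites were left, too few for a share. The share at a gene end was 16.3% within 500 bp and 37.8% within 2500 bp, against 6.21% and 19.1% of all WT Smc3 peaks. The stricter CTCF string was in 0.962% of promoters with a site, and with promoters counted by overlap with the whole peak, also chosen after seeing the data, the core string was in 8.82% of 238, against 28.3% for WT-only peaks with CTCF. No paired analysis was possible because each line gave 1 library per protein. The lists hold no read totals, so depth cannot be told apart from the difference between the lines.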

Other observations

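Sites far from every CTCF and C59 Smc3 peak formed a minority. At 208 sites (10.8%) no CTCF peak of either line and no C59 Smc3 peak stood within 10 kb. Among noncoding RNA genes, a site stood by 11 of 1136 microRNA genes (0.968%), 17 of 1286 snoRNA genes (1.32%) and 6 of 931 snRNA genes (0.644%), against 2.65% of protein-coding genes. Any WT Smc3 peak stood by 9.2%, 12% and 5.8% of them, against 21.8% of protein-coding genes. The lower shares are thus not particular to these sites. Mir212 and Mir132, microRNA genes that lie side by side, shared a site with a fold of 4.37, 404 and 698 bp from their hairpins. Lineage factor genes had a site at 3 of 33, which were Olig2 (fold 3.60), Eomes (3.43) and Hand1 (3.33). Abundant housekeeping genes had one at 3 of 35, at Ftl1 (4.37), Tuba1b (3.43) and Actg1 (3.17), and heat shock genes at 2 of 28, at Hsp90aa1 (3.94) and Hspe1 (3.57). Myc was the single gene of 22 in the Myc and cell cycle list, with a fold of 3.57. Translation factor genes had a site at 2 of 34, at Eef1g (3.42) and Eif2s2 (2.64). Zfp genes had one at 11 of 388 (2.84%), led by Zfp57 (4.08), an imprinting factor. Within 1 kb, the exact intervals of all these lists, from lineage factors to Zfp genes, include the 2.65% of all protein-coding genes. Within 10 kb, those of lineage factor (11.1 to 42.3) and translation factor genes (12.9 to 44.4) lie above the 8.06% of all protein-coding genes. Any WT Smc3 peak stood by 24.2% of lineage factor, 65.7% of housekeeping and 28.6% of heat shock genes. It stood by 36.4% of Myc and cell cycle, 44.1% of translation factor and 20.6% of Zfp genes.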
